A study of Rattus norvegicus with 39 samples.

Results

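The livers of rats given 1 of 3 classical liver toxicants were set against the livers of rats given 1 of 3 compounds whose main targets lie elsewhere. The toxicant side held 15 arrays and the other side 15 arrays, chosen by the compound named in the sample titles, out of 39 arrays in all. Each array measured 1 liver (left lateral lobe) of a rat 5 to 6 weeks old, taken 48 h after treatment, on an Affymetrix rat expression chip. On the toxicant side, ANIT was given at 125 mg/kg in corn oil by mouth, DMN at 15 mg/kg in water by mouth and NMF at 1000 mg/kg in saline by intraperitoneal injection. On the other side, Caerulein was given at 50 µg/kg in saline by intraperitoneal injection, DNP at 15 mg/kg in water by mouth and Roziglitazone (the spelling of the titles, for rosiglitazone) at 1000 mg/kg in methylcellulose by mouth. Each compound group had 5 rats, and 9 untreated rats, which received no vehicle, formed the control group. The division into toxicants and other compounds rests on general knowledge of the compounds and not on the titles.

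As background, ANIT (alpha-naphthylisothiocyanate) is carried into bile and injures the bile duct epithelium, which leads to cholestasis with neutrophil influx. DMN (dimethylnitrosamine) is activated by cytochrome P450 in pericentral hepatocytes to a methylating agent that damages DNA. NMF (N-methylformamide) is a solvent whose metabolism depletes glutathione and kills pericentral hepatocytes. Caerulein is a cholecystokinin analogue that overstimulates the pancreas, DNP (2,4-dinitrophenol) uncouples mitochondrial respiration, and rosiglitazone activates the nuclear receptor PPAR gamma. An injured liver commonly induces stress-defence genes, enters the cell cycle to replace lost cells and lowers the genes of specialised hepatocyte work such as drug metabolism, bile acid handling and plasma protein secretion.

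Values are log2 intensities of 14217 genes. A difference is the mean of the 3 toxicant group means minus the mean of the 3 other group means, given with its standard error from limma, and a gene was called where its adjusted p was under 0.05. Of the 30 compound arrays, 3 were treated as doubted. After the mean of all other arrays was subtracted, the array labelled ANIT 3 correlated across genes at 0.705 with DMN and at 0.301 with its own group, and the array labelled Roziglitazone 2 at 0.802 with ANIT and at -0.303 with its own group. The array labelled DMN 2 correlated at 0.0034 with its own group and at 0.120 with Roziglitazone, the group most like it. Further arrays also correlated more with another group than with their own. They were all DNP arrays, Caerulein 3, Caerulein 5, NMF 3, NMF 4, Roziglitazone 1, Roziglitazone 3 and Roziglitazone 5. Roziglitazone 1 had -0.221 with its own group and 0.354 with DNP, and DNP 1 had -0.061 and 0.333 with control. Roziglitazone 3 had 0.057 with its own group and 0.579 with Caerulein. Counts and leading values are also given without the 3 doubted arrays ANIT 3, DMN 2 and Roziglitazone 2. On DMN 3, DNP 1, NMF 3, Roziglitazone 1 and 2 control arrays the 5-prime control probe set for GAPDH lay over 4 log2 units below its median. In whole tissue, fewer cells of a type and less RNA per cell cannot be told apart.

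Livers under the toxicants differed from those under the other compounds in 2695 of 14217 genes (19.0% called), of which 1375 (9.67%) were higher and 1320 (9.28%) lower. A difference of 2-fold or more was found in 229 called genes (1.61%), 132 of them higher (0.928%) and 97 lower (0.682%). The median difference over all genes was -0.05, with 5th and 95th percentiles of -0.49 and 0.51. Without the 3 doubted arrays 3191 genes were called (22.4%), of which 1666 were higher and 1525 lower, and 2512 genes were called in both fits. Leaving out 1 array at a time gave 2255 to 3066 called genes. In 3386 genes (23.8%) all 3 toxicant means lay beyond all 3 other means, and 2006 of the 2695 called genes (74.4%) were among them.

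The fall of Stac3, the gene of an adaptor of muscle calcium channels, was the largest of all. Its log2 level was 5.19, 6.01, 5.21, 5.30 and 5.91 on the 5 ANIT arrays, 5.43, 9.79, 5.38, 5.42 and 6.34 on the DMN arrays and 5.74, 5.89, 6.51, 5.15 and 6.74 on the NMF arrays. On the other side it was 10.82, 8.96, 11.26, 9.25 and 10.39 under Caerulein, 10.54, 10.41, 11.60, 10.41 and 9.21 under DNP and 11.25, 6.00, 10.71, 11.11 and 11.31 under Roziglitazone. The level of DMN 2 stood among the other compounds and that of Roziglitazone 2 among the toxicants, while the remaining 13 and 14 arrays did not overlap. Stac3 was 18.5-fold lower under the toxicants (log2 difference -4.21 ± 0.41, adjusted p = 4.36e-09), and the difference was -4.80 without the doubted arrays. Controls ranged from 10.32 to 11.36.

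Oat, the ornithine aminotransferase of hepatocytes next to the central vein, fell under each toxicant. It read 9.67, 9.61, 9.39, 9.31 and 9.30 under ANIT, 9.29, 10.35, 9.97, 9.74 and 10.13 under DMN and 9.80, 9.35, 10.45, 9.39 and 9.25 under NMF. Under Caerulein it read 12.40, 11.61, 12.38, 12.24 and 11.51, under DNP 11.999, 12.77, 12.44, 12.39 and 11.92 and under Roziglitazone 12.60, 9.54, 12.50, 12.52 and 12.18. Only Roziglitazone 2 lay inside the toxicant range of 9.25 to 10.45. The fall of 2.40 ± 0.20 on the log2 scale (5.28-fold, adjusted p = 1.12e-10) was 6.11-fold for ANIT, 4.5-fold for DMN and 5.35-fold for NMF, and the F-test among the toxicants gave an adjusted p of 0.69.

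Akr1c1, an aldo-keto reductase that acts on steroids, was more uneven between rats. The ANIT arrays gave 9.57, 6.80, 5.35, 9.93 and 7.24, the DMN arrays 5.52, 9.87, 6.43, 6.39 and 4.66 and the NMF arrays 8.53, 5.21, 6.88, 6.16 and 5.97, against 9.16 to 11.50 for the other compounds and 9.45 to 11.35 for controls. ANIT 1, ANIT 4 and DMN 2 lay inside the range of the other compounds, and 12 of 15 toxicant arrays lay below all 15 others (log2 difference -3.76 ± 0.41, adjusted p = 2.19e-08). Fmo1, a flavin monooxygenase of drug oxidation, read 7.38, 7.82, 7.37, 8.62 and 7.86 under ANIT, 7.57, 10.74, 8.03, 7.82 and 6.25 under DMN and 5.89, 6.27, 7.87, 5.85 and 5.32 under NMF, against 10.82, 7.53, 11.09, 10.93 and 11.19 under Roziglitazone and 10.37 to 11.59 over Caerulein and DNP. DMN 2 and Roziglitazone 2 were again the arrays that crossed, and the difference of -3.37 ± 0.31 (10.4-fold, adjusted p = 1.95e-09) became -3.79 without the doubted arrays.

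Other large falls had plainer metabolic roles. Car3, the carbonic anhydrase abundant in male rat liver, was 5.91-fold lower (log2 difference -2.56 ± 0.35, adjusted p = 1.40e-06). Scd, the stearoyl-CoA desaturase, was 5.46-fold lower (log2 difference -2.45 ± 0.22, adjusted p = 5.53e-10) and Pklr, the liver pyruvate kinase, 4.69-fold lower (log2 difference -2.23 ± 0.25, adjusted p = 4.17e-08). Serpina6, the corticosteroid-binding globulin of plasma, fell by 2.31 ± 0.37 on the log2 scale, with an adjusted p of 1.93e-05. Nrep, Dhrs7l1, Sez6 and Ust5r completed the 12 largest falls, with differences of -2.95 ± 0.31, -2.58 ± 0.49, -2.32 ± 0.28 and -2.29 ± 0.26. Between Dhrs7l1 arrays the spread was wide, with toxicant levels of 6.11 to 12.60 around a median of 8.26 and other levels of 8.49 to 12.53 around a median of 11.34, and its adjusted p was 0.000194.

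Among the rises Akr1b7, a relative of aldose reductase that reduces reactive aldehydes, was the largest and among the least even. It read 7.03, 6.36, 11.11, 7.0 and 7.58 under ANIT, 9.996, 6.67, 11.53, 11.85 and 8.58 under DMN and 12.24, 7.26, 7.78, 11.22 and 11.86 under NMF, against a lowest value of 4.18, a median of 5.78 and a highest value of 7.06 over the 15 other arrays. Controls were themselves spread from 5.33 to 9.70. The level of ANIT 3 was far above the remaining ANIT arrays, 11 of 15 toxicant arrays lay above all others, and the difference was 3.64 ± 0.56 (12.5-fold, adjusted p = 9.25e-06). Against untreated liver the toxicant mean was higher by 1.91 (adjusted p = 0.0362) and the mean of the other compounds differed by -1.73 (adjusted p = 1.0).

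Rnd1, whose product loosens the actin cytoskeleton, read 8.77, 9.58, 8.59, 8.99 and 9.29 under ANIT, 7.75, 6.09, 8.05, 6.93 and 8.68 under DMN and 6.95, 6.18, 6.51, 7.98 and 6.41 under NMF. The other compounds gave a lowest value of 4.19, a median of 4.73 and a highest value of 9.26, and the highest value was that of Roziglitazone 2. Without the doubted arrays the sides did not overlap. Rnd1 was 6.61-fold higher (log2 difference 2.72 ± 0.30, adjusted p = 2.29e-08). Atf3, a transcription factor of the stress response, ranged from 5.55 to 11.50 under the toxicants with a median of 7.41, and from 4.53 to 7.53 under the other compounds with a median of 5.45 (log2 difference 2.44 ± 0.41, adjusted p = 3.88e-05). Tubb6, a beta-tubulin, was 4.23-fold higher (log2 difference 2.08 ± 0.23, adjusted p = 2.46e-08), and Enc1, an actin-binding protein, 3.99-fold higher (log2 difference 2.00 ± 0.29, adjusted p = 5.49e-06). For Enc1 12 of 15 toxicant arrays exceeded all 15 others. Its further probe sets had differences of 1.64, called, and of 0.04 and -0.06, not called. Neurl3, an E3 ubiquitin ligase, was higher by 1.95 ± 0.25, with an adjusted p of 7.99e-07.

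**Figure D1:**
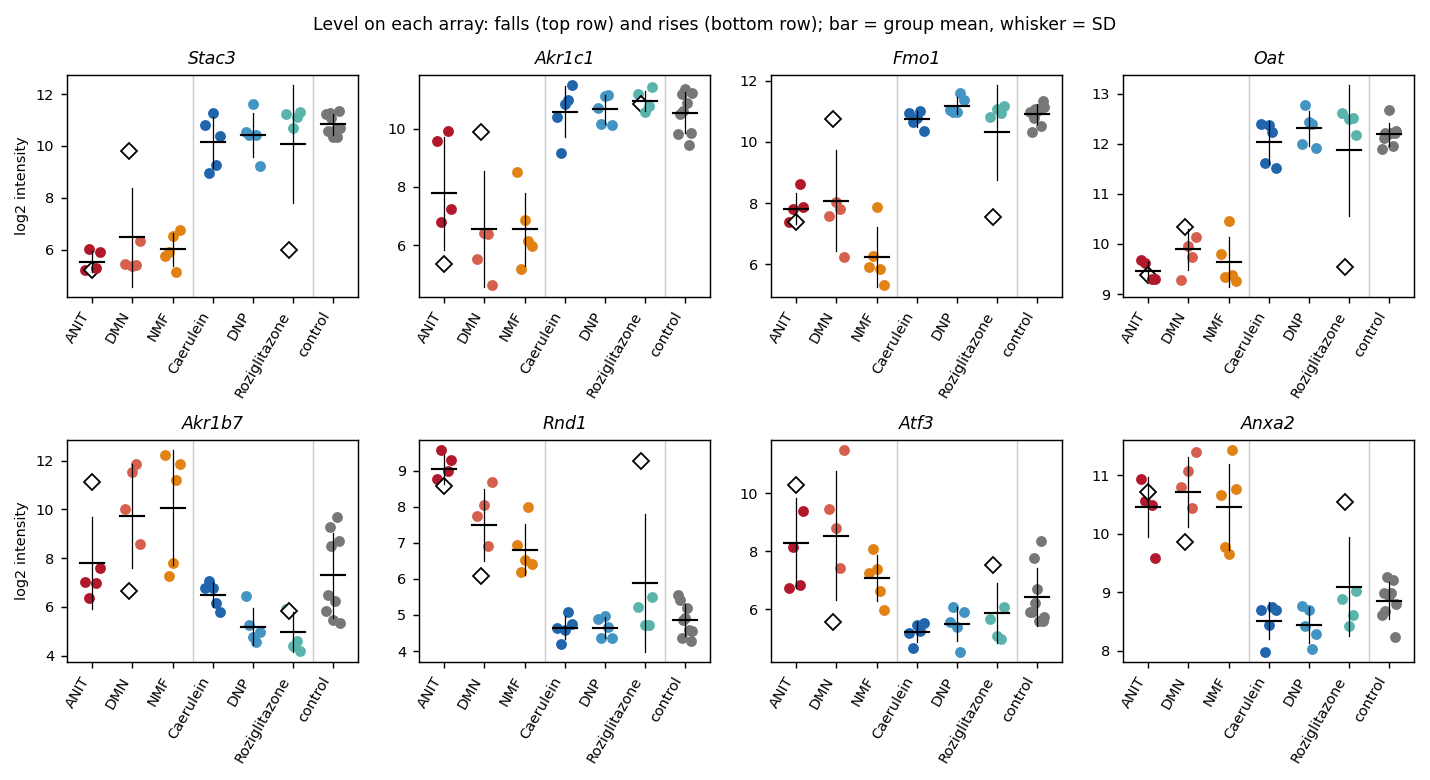
Level of 8 genes on each array as log2 intensity (vertical axis) by group (horizontal axis), with 5 arrays per compound and 9 controls; horizontal bars are group means, whiskers are SDs, and open diamonds are the doubted arrays ANIT 3, DMN 2 and Roziglitazone 2. In the upper row the 3 toxicant groups lie below the other groups, with the diamonds of DMN 2 and Roziglitazone 2 often on the opposite side; in the lower row the toxicant groups lie above them.

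Not every large rise was shared by the 3 toxicants. Abcc3, the export pump (MRP3) that carries conjugates from hepatocytes into blood, read 10.68, 10.10, 7.15, 10.65 and 11.21 under ANIT and 11.23, 10.05, 10.66, 10.10 and 9.84 under NMF, but 7.11, 5.03, 8.38, 6.64 and 4.89 under DMN, against a lowest value of 4.36, a median of 4.95 and a highest value of 10.59 under the other compounds. The overall difference of 3.37 ± 0.46 (10.3-fold, adjusted p = 1.44e-06) was made of 21.3-fold for ANIT, 28.4-fold for NMF and 1.82-fold for DMN, and that of DMN had an adjusted p of 0.47 by limma. Gstm3, a mu-class glutathione transferase, was 6.29-fold higher (log2 difference 2.65 ± 0.45, adjusted p = 4.67e-05), with group means of 10.92 ± 1.79 (SD, n = 5) for ANIT, 8.70 ± 1.76 for DMN and 9.79 ± 0.64 for NMF against 7.15 for the others. Probe sets of near-identical relatives in the Gst, Akr1, Cyp2c and Cyp3a families may read more than 1 member, so the assignment to a single gene is uncertain for them.

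**Figure D2:**
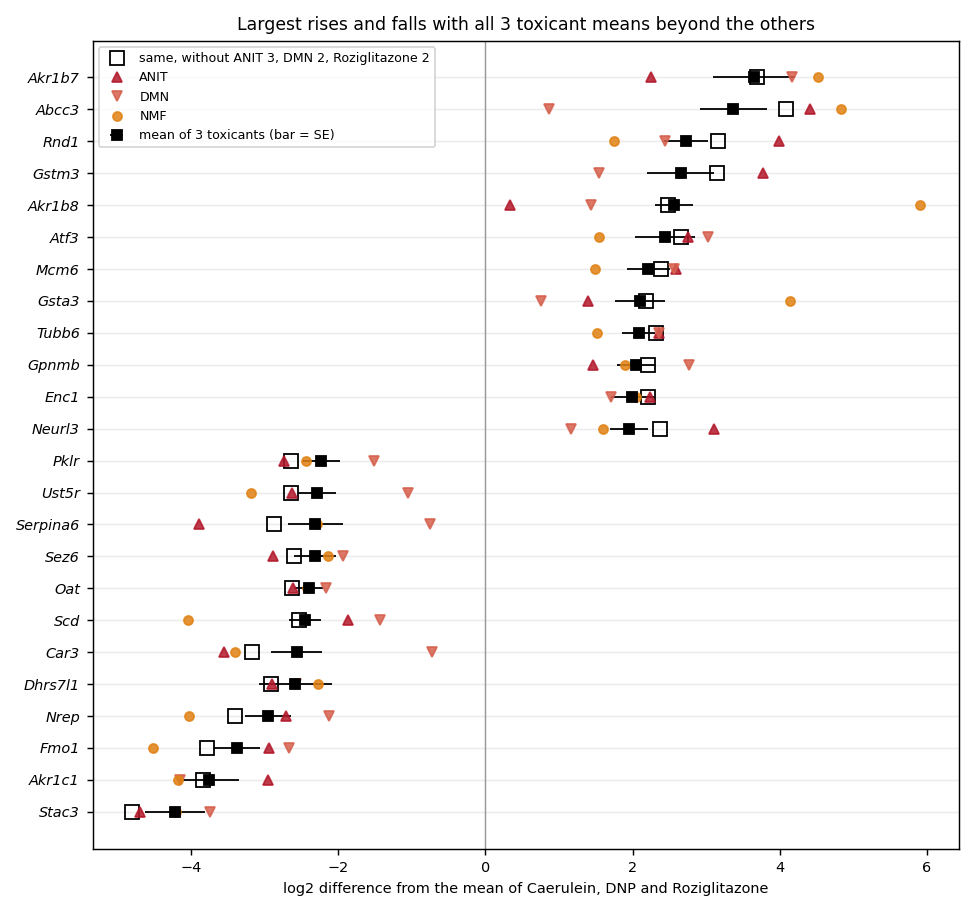
The 12 largest rises and 12 largest falls among called genes whose 3 toxicant means all lay beyond the 3 other means, as the log2 difference from the mean of Caerulein, DNP and Roziglitazone (horizontal axis); filled squares with SE bars are the mean of the 3 toxicants, coloured symbols each toxicant, and open squares the mean without the 3 doubted arrays, and some symbols cover each other. Stac3 and Oat have their 3 toxicants close together, while Akr1b8, Abcc3 and Car3 have 1 toxicant far from the other two.

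Genes of the antioxidant defence under the transcription factor NRF2, which binds antioxidant response elements once oxidants or electrophiles release it, were mostly higher. Of 26 measured members 16 were called higher (9.67% of all genes were) and 1 lower, with a median difference of 0.52 against -0.05 over all genes, and 18 were called higher without the doubted arrays. Against the other compounds 15 members were called higher for NMF, 11 for ANIT and 5 for DMN, where 4.64%, 9.34% and 6.16% of all genes were. The mean level of the list relative to controls was 0.08 to 1.66 on the toxicant arrays and -0.19 to 0.74 on the others, of which the highest was Roziglitazone 2.

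The letters TGACNNNGC of the antioxidant response element were searched, on either strand, in the 250 bases before the RefSeq start (build GRCr8). For the 4 members called higher that hold them, the 250 bases are printed 5′ to 3′ on the gene's strand, with those letters in capitals. Binding was not measured. Gpx2 lies at chr6:101230034-101230283 (minus strand), Gsta3 at chr9:31154739-31154988 (plus strand), Gstp1 at chr1:210769706-210769955 (minus strand) and Gclm at chr2:213031885-213032134 (plus strand), and all 4 windows are upstream of the annotated start.
Gpx2: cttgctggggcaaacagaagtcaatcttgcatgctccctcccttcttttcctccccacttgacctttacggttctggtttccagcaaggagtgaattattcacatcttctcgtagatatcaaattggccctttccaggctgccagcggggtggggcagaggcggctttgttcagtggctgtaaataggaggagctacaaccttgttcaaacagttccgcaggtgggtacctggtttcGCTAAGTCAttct
Gsta3: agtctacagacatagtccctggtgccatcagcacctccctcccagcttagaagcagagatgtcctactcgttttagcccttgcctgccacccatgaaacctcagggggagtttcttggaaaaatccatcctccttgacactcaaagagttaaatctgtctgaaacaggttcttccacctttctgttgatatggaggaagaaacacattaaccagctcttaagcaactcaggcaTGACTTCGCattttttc
Gstp1: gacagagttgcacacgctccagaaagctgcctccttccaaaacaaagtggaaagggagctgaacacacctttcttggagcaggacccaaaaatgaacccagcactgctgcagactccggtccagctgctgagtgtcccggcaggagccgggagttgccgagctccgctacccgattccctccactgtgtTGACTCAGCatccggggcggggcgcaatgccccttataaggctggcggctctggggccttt
Gclm: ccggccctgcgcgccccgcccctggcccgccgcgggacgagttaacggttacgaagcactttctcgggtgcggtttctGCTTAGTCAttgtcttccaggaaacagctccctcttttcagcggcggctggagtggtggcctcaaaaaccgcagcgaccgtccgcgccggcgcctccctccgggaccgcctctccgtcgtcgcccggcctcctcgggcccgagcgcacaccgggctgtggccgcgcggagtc

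The capitals begin 13 bases before the start in Gpx2, 17 in Gsta3, 61 in Gstp1 and 172 in Gclm. These letters were found in the windows of 4 of the 15 NRF2 members called higher that had a promoter entry (26.7%), in 1 of the 9 members not called higher (11.1%), Me1, and in 1439 of 11733 measured genes (12.3%). Me1, the malic enzyme, was the member called lower (log2 difference -0.92, adjusted p = 0.000104), and its letters begin 167 bases before the start. A match of letters describes the window and does not show that a factor binds there.

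Gpx2, the gastrointestinal glutathione peroxidase, read 10.25, 9.22, 7.19, 9.48 and 10.37 under NMF, 9.02, 8.48, 6.00, 9.31 and 8.97 under ANIT and 4.80, 4.90, 5.68, 5.22 and 6.52 under DMN, against 4.28 to 8.17 under the other compounds. All DMN arrays, ANIT 3 and NMF 3 lay inside the range of the others, whose highest value was that of Roziglitazone 2, and the remaining 8 toxicant arrays lay above it (log2 difference 2.62 ± 0.32, adjusted p = 1.99e-07). Gstp1, the pi-class glutathione transferase, read 12.50, 13.05, 11.55, 13.40 and 12.95 under NMF, 9.10, 8.80, 8.94, 9.31 and 8.72 under ANIT and 9.08, 9.66, 8.82, 9.37 and 10.59 under DMN, against 8.24 to 9.21. NMF raised it 14.8-fold (adjusted p = 3.77e-14), while ANIT gave 1.13-fold (adjusted p = 0.658) and DMN 1.63-fold (adjusted p = 0.0684).

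Akr1b8, an aldo-keto reductase, followed the same order, at 12.88, 10.78, 10.55, 12.15 and 12.61 under NMF, 6.89, 6.93, 7.27, 6.67 and 8.90 under DMN and 5.92, 6.24, 8.03, 5.58 and 5.37 under ANIT, against 4.87 to 6.72. Its 59.9-fold rise under NMF was the largest of the 3, and the ANIT value had an adjusted p of 0.545 by limma. Gsta3, an alpha-class glutathione transferase, had means of 11.45 ± 0.32 (SD, n = 5), 8.72 ± 0.35 and 8.07 ± 1.38 under NMF, ANIT and DMN, against 7.32 (log2 difference 2.10 ± 0.34, adjusted p = 2.41e-05). Akr7a3, which reduces aflatoxin aldehyde, was 3.51-fold higher, at 13.70 ± 0.17 under NMF, 11.38 ± 0.65 under DMN and 10.95 ± 0.64 under ANIT against 10.20 (log2 difference 1.81 ± 0.19, adjusted p = 8.78e-09). Hmox1, the heme oxygenase, was higher by 0.77 ± 0.27 with an adjusted p of 0.0447, a call that was lost in 29 of 48 alternative fits.

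Targets of p53, a transcription factor switched on by DNA damage, were called higher in 11 of 20 measured members and lower in 3, with a median of 0.37. DMN had 11 members called higher, ANIT 8 and NMF 2, where 6.16%, 9.34% and 4.64% of all genes were. The ANIT count includes the doubted array ANIT 3, where the mean level of the list relative to controls was 0.93. That level was 0.16 to 0.40 on the remaining ANIT arrays and -0.18 to 0.13 under the other compounds. Cdkn1a, the cell-cycle inhibitor p21, read 11.52, 10.30, 11.95, 11.53 and 11.59 under DMN, 10.09, 10.31, 11.91, 10.12 and 9.92 under ANIT and 9.45, 10.24, 10.25, 9.36 and 8.76 under NMF, against a lowest value of 7.43, a median of 9.20 and a highest value of 10.39 under the other compounds. The toxicant and other ranges overlapped, and the controls, at 9.89 ± 0.48 (SD, n = 9), lay between the sides (log2 difference 1.41 ± 0.25, adjusted p = 8.83e-05). Phlda3, an inhibitor of Akt signalling, was 2.63-fold higher (log2 difference 1.39 ± 0.15, adjusted p = 1.40e-08) and did not overlap between the sides without the doubted arrays. Ccng1, cyclin G1, was higher by 1.18 ± 0.22 (adjusted p = 0.000153). Gadd45a, a growth arrest and DNA repair gene, was higher by 1.23 ± 0.30 (adjusted p = 0.00302) and the death receptor Fas by 1.09 ± 0.17 (adjusted p = 1.57e-05). Further probe sets of Fas, at mean levels of 4.86 and 4.64, had differences of -0.01 and -0.20 and were not called.

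Genes of DNA replication and mitosis were called higher in 22 of 39 measured members and lower in 1, with a median of 0.56. The count against the other compounds was 28 for DMN, 16 for ANIT and 2 for NMF. The shares of all genes called higher were 6.16%, 9.34% and 4.64% in that order. The ANIT count includes the doubted array ANIT 3, where the mean level of the list relative to controls was 1.53. That level was 0.15 to 0.39 on the remaining ANIT arrays and -0.46 to 0.61 under the other compounds. By the F-test 14 of the called members also differed among the toxicants. Mcm6, a subunit of the replicative helicase, read 8.61, 6.55, 8.38, 7.71 and 6.69 under DMN, 8.34, 7.46, 8.19, 7.26 and 6.81 under ANIT and 7.33, 5.01, 5.25, 8.48 and 6.48 under NMF, against a lowest value of 4.19, a median of 4.87 and a highest value of 7.39. NMF was the lowest of the 3 toxicants, and Mcm6 was 4.63-fold higher in all (log2 difference 2.21 ± 0.29, adjusted p = 8.89e-07). Ube2c, a ubiquitin carrier of mitotic exit, had means of 9.97 ± 0.97 (SD, n = 5) under DMN, 8.24 ± 1.07 under ANIT, 6.62 ± 1.08 under NMF and 6.51 under the others (log2 difference 1.76 ± 0.30, adjusted p = 4.74e-05). Ccna2, cyclin A2, and Kif20b, a mitotic kinesin, were higher by 1.73 ± 0.38 (adjusted p = 0.0012) and 1.60 ± 0.30 (adjusted p = 0.000172), but the means of the other compounds, 4.53 and 4.07, lay within the range of the bacterial spike-in probe sets used as background, 3.49 to 4.70. Calls of Ube2c, Ccna2 and Kif20b were lost without the DMN group.

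Cytoskeletal and junction genes that rise in injured epithelium had 22 of 32 members called higher and 2 lower, with a median of 0.61. The members were chosen as genes raised in injury, with earlier results of these data known, so the count is a description. ANIT had 20 called higher, DMN 22 and NMF 9, where 9.34%, 6.16% and 4.64% of all genes were. Anxa2, a membrane-binding annexin, read 10.94, 10.57, 10.72, 10.49 and 9.60 under ANIT, 10.80, 9.86, 11.08, 10.44 and 11.39 under DMN and 10.66, 9.77, 9.66, 11.44 and 10.78 under NMF. Under Caerulein, DNP and Roziglitazone the 15 arrays gave a lowest value of 7.98, a median of 8.69 and a highest value of 10.55, and the highest of them was Roziglitazone 2. Anxa2 was 3.64-fold higher (log2 difference 1.86 ± 0.19, adjusted p = 6.48e-09), the F-test among toxicants gave an adjusted p of 0.84, and the test over the 6 compound means gave 0.00897. Tnfrsf12a, the receptor of the cytokine TWEAK, was 3.53-fold higher (log2 difference 1.82 ± 0.30, adjusted p = 3.00e-05). Lama5, a laminin chain of basement membranes, was higher by 2.00 ± 0.27 (adjusted p = 1.39e-06), with 8.94 under DMN, 7.63 under ANIT and 5.42 under NMF against 5.33. Its further probe sets, at mean levels of 4.34 and 4.87, had differences of -0.14 and -0.17 and were not called.

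Genes that keep proteins folded and cleared were also among those called higher. Of 30 proteasome subunits, 20 were called higher and 0 lower, where 9.67% and 9.28% of all genes were. Their median was small, at 0.33, with 0.25 for ANIT, 0.33 for DMN and 0.41 for NMF. ANIT had 9 called higher, DMN 11 and NMF 15, where 9.34%, 6.16% and 4.64% of all genes were. The mean level of the subunits relative to controls was 0.17 to 0.53 on the toxicant arrays and -0.26 to 0.35 on the other arrays, with Roziglitazone 2 the highest of the latter. Psmb5, a catalytic subunit, was 1.47-fold higher (log2 difference 0.56 ± 0.09, adjusted p = 9.25e-06), and Psmd2 1.44-fold (log2 difference 0.52 ± 0.10, adjusted p = 0.000189). Psmd13 was 1.41-fold higher (log2 difference 0.50 ± 0.09, adjusted p = 0.000121) and Psmd4 1.7-fold (log2 difference 0.77 ± 0.24, adjusted p = 0.0214). No subunit was called in the test over the 6 compound means.

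Heat shock chaperones were called higher in 7 of 15 members and lower in 0 (median 0.34). ANIT had 5 called higher, NMF 5 and DMN 1, where 9.34%, 4.64% and 6.16% of all genes were. Cryab, a small heat shock protein, was 3.86-fold higher (log2 difference 1.95 ± 0.26, adjusted p = 1.14e-06), at 10.32 ± 1.5 (SD, n = 5) under DMN, 8.81 ± 0.99 under ANIT and 7.33 ± 0.41 under NMF. Hspa1a, the inducible HSP70, was higher by 1.86 ± 0.34 (adjusted p = 0.000101) and the small chaperone Hspb1 by 1.45 ± 0.37 (adjusted p = 0.00426). Hsp90ab1 was higher by 0.80 ± 0.28 (adjusted p = 0.0409), a call lost in 21 of 48 alternative fits. Endoplasmic reticulum stress genes had 10 of 24 called higher and 1 lower (median 0.25), where 9.67% and 9.28% of all genes were. Those called higher included Asns, asparagine synthetase (log2 difference 1.14 ± 0.19, adjusted p = 2.72e-05), and the chaperone-like Creld2 (log2 difference 0.71 ± 0.12, adjusted p = 6.59e-05) and Hsp90b1 (log2 difference 0.67 ± 0.14, adjusted p = 0.000719).

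Immediate early genes, which switch on within minutes of a stimulus, had 8 of 27 members called higher and 0 lower. ANIT had 7 called higher, DMN 5 and NMF 0, where 9.34%, 6.16% and 4.64% of all genes were. Jun read 9.77, 10.59, 10.68, 10.29 and 11.23 under ANIT, 9.65, 7.76, 9.14, 9.58 and 12.12 under DMN and 8.25, 8.89, 7.92, 9.21 and 7.99 under NMF, against a lowest value of 6.70, a median of 7.56 and a highest value of 10.21 (log2 difference 1.73 ± 0.29, adjusted p = 4.49e-05). Klf6 was 2.66-fold higher (log2 difference 1.41 ± 0.29, adjusted p = 0.000616). Cell death regulators had 9 of 32 called higher and 2 lower (median 0.14), where 9.67% and 9.28% of all genes were. Casp12, a caspase of the endoplasmic reticulum, was higher by 1.29 ± 0.29 (adjusted p = 0.00141) and Bmf, a pro-death BH3-only protein, fell by 0.95 ± 0.15 on the log2 scale (adjusted p = 1.90e-05).

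The acute phase and chemokine lists held calls in both directions, where 9.67% of all genes were called higher and 9.28% lower. Acute phase genes had 5 of 27 called higher (3 without Caerulein 1 or Roziglitazone 4) and 3 lower, with a median of -0.02. ANIT had 5 called higher and 2 lower, DMN 2 and 1, and NMF 0 and 5. Of all genes 9.34%, 6.16% and 4.64% were called higher in that order, and 8.8%, 3.88% and 3.63% lower. The mean level of the acute phase list relative to controls was -0.21 to 0.62 on the toxicant arrays and -0.37 to 0.65 on the others. Hamp, the iron hormone hepcidin, was 2.52-fold higher (log2 difference 1.33 ± 0.35, adjusted p = 0.00598). Lbp, which binds bacterial lipopolysaccharide, was 1.93-fold higher (log2 difference 0.95 ± 0.22, adjusted p = 0.00157), and Serpina3m 1.94-fold lower (log2 difference -0.96 ± 0.11, adjusted p = 3.14e-08). Chemokines and inflammatory signals had 4 of 31 called higher and 3 lower, near the shares of all genes, or 7 and 4 without the doubted arrays. Ccl2, which draws monocytes, was higher by 1.27 ± 0.25 (adjusted p = 0.000284) and Tnfaip3, a brake on NF-kB, by 1.0 ± 0.23 (adjusted p = 0.00145). The lymphocyte chemokines Cxcl9 (log2 difference -1.29 ± 0.35, adjusted p = 0.00742) and Cxcl12 (log2 difference -0.96 ± 0.13, adjusted p = 1.01e-06) were lower. Interferon response genes had 5 of 23 called higher and 0 lower, among them Mx2 (log2 difference 1.35 ± 0.42, adjusted p = 0.0205) and Isg15 (log2 difference 0.99 ± 0.33, adjusted p = 0.0327). The others named are Tap1 (log2 difference 0.90 ± 0.21, adjusted p = 0.00236) and Isg20 (log2 difference 0.86 ± 0.27, adjusted p = 0.0242). The mean level of the interferon list relative to controls was 1.52 on ANIT 5 and 1.79 on DMN 3, but -0.48 to 0.41 on the remaining 13 toxicant arrays, against -0.55 to 0.30 on the others, and 9 of 15 toxicant arrays were below 0. Without ANIT 5 and DMN 3 only Tap1 was called higher and 1 member, Irf9, lower. The count also fell to 2 or 3 without ANIT 5, DMN 3, DNP 4, NMF 4 or Roziglitazone 3 alone. The Isg15 call was lost in 11 of 48 alternative fits and the Isg20 call in 6.

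**Figure D3:**
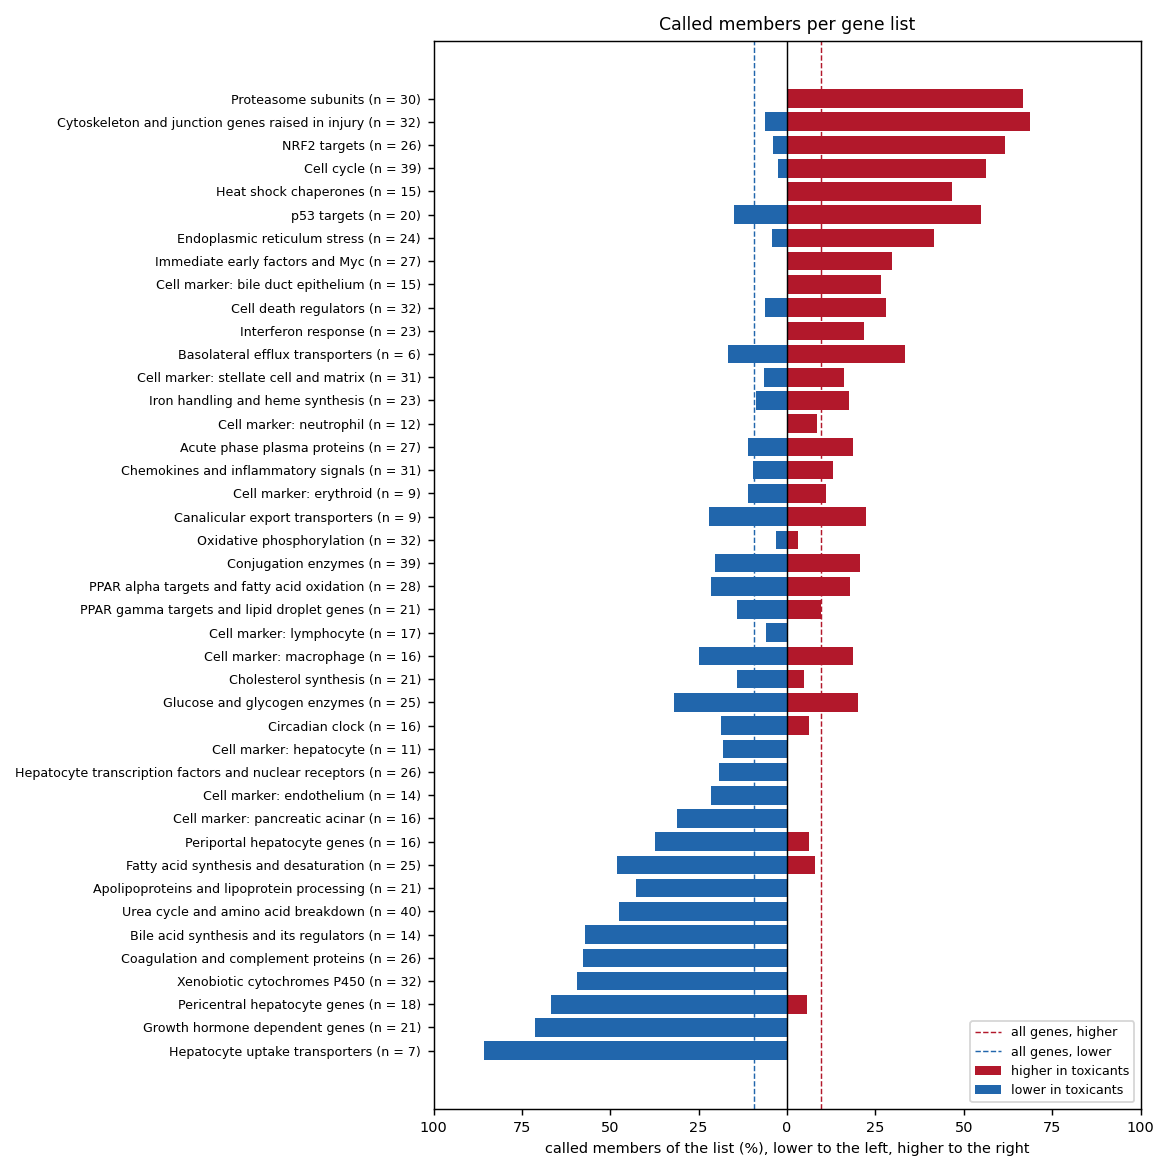
Share of the measured members of each list that were called (horizontal axis, percent; lower to the left in blue, higher to the right in red), one bar pair per list with its number of measured members; dashed lines mark the shares among all genes, 9.67% higher and 9.28% lower. Proteasome, cytoskeleton and NRF2 lists extend to the right and uptake transporters, growth hormone dependent genes and pericentral genes to the left.

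Many genes called lower stood in lists of specialised hepatocyte work. Growth hormone dependent genes, whose male pattern in the rat is set by pulsatile growth hormone, were called lower in 15 of 21 members (9.28% of all genes were) and higher in 0, with a median of -1.02. Against the other compounds 14 members were called lower for ANIT, 11 for NMF and 8 for DMN, where 8.80%, 3.63% and 3.88% of all genes were, and 18 members were called lower without the doubted arrays. Cyp2c11, the main male-specific P450, read 11.37, 9.84, 11.14, 11.06 and 10.01 under ANIT, 11.55, 13.28, 10.48, 10.65 and 10.93 under DMN and 10.77, 12.40, 12.59, 11.41 and 10.74 under NMF, against a lowest value of 10.95, a median of 13.38 and a highest value of 13.60 under the other compounds. The lowest of the others was Roziglitazone 2, and the sides did not overlap without the doubted arrays. Cyp2c11 was 3.96-fold lower (log2 difference -1.98 ± 0.24, adjusted p = 2.29e-07), Cyp3a2 2.66-fold lower (log2 difference -1.41 ± 0.20, adjusted p = 3.85e-06) and Obp3, an odorant-binding lipocalin, 3.2-fold lower (log2 difference -1.68 ± 0.26, adjusted p = 9.25e-06). Car3 and Serpina6 belong to this list as well.

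Transporters that bring bile acids and drugs from blood into hepatocytes were called lower in 6 of 7 measured members, where 9.28% of all genes were. All 7 had their 3 toxicant means below the 3 other means, while 23.8% of all genes had these means apart in either direction. Slco1a1, an organic anion carrier, read 8.47, 8.42, 9.85, 8.11 and 7.54 under ANIT, 9.49, 9.76, 9.35, 10.13 and 8.14 under DMN and 7.66, 8.24, 9.18, 9.11 and 7.60 under NMF, against a lowest value of 8.45, a median of 10.14 and a highest value of 10.75 (log2 difference -1.2 ± 0.23, adjusted p = 0.000264). Slc22a8, another organic anion carrier, was 2.44-fold lower (log2 difference -1.28 ± 0.17, adjusted p = 7.64e-07). Slco2b1 was 1.9-fold lower (log2 difference -0.92 ± 0.12, adjusted p = 1.02e-06) and Slco1a4 2.28-fold lower (log2 difference -1.19 ± 0.18, adjusted p = 8.08e-06). Slco1a4 was lowest under NMF, at 8.76 ± 0.75 (SD, n = 5) against 10.82 ± 0.50 for ANIT and 10.64 ± 0.26 for DMN, and its call was lost without the NMF group.

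Genes of bile acid synthesis and its regulation had 8 of 14 members called lower and 0 higher (median -0.37), where 9.28% and 9.67% of all genes were. Cyp7a1, the rate-limiting enzyme, read 10.86, 10.74, 8.52, 10.75 and 11.68 under ANIT, 9.66, 11.07, 9.33, 7.47 and 5.57 under DMN and 7.13, 6.87, 8.63, 6.47 and 7.26 under NMF, against a lowest value of 9.87, a median of 10.56 and a highest value of 11.97. The ANIT levels other than that of ANIT 3 stayed among those of the other compounds, and the lowest mean was that of NMF (log2 difference -1.93 ± 0.45, adjusted p = 0.00174; adjusted p = 0.0145 for the F-test among toxicants). The call was lost without the NMF group. Cyp8b1, which directs synthesis to cholic acid, was 2.77-fold lower (log2 difference -1.47 ± 0.29, adjusted p = 0.000249), and Amacr, a racemase of side-chain shortening, 2.00-fold lower (log2 difference -1.0 ± 0.15, adjusted p = 9.25e-06). The branched-chain oxidase Acox2 was 1.47-fold lower (log2 difference -0.56 ± 0.17, adjusted p = 0.0197) and the bile acid receptor Nr1h4 (FXR) 1.47-fold lower (log2 difference -0.55 ± 0.17, adjusted p = 0.0188).

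Pumps of the canalicular membrane, which face the bile, split: 2 of 9 were called higher and 2 lower, the latter 0 without Caerulein 1, NMF 5 or Roziglitazone 4. Among all genes 9.67% were called higher and 9.28% lower. Abcb1a, a multidrug pump, was 2.39-fold higher (log2 difference 1.26 ± 0.24, adjusted p = 0.000187). Abcb4, the phospholipid exporter that protects bile ducts, had 11.52, 11.47, 10.22, 11.97 and 11.37 under ANIT against means of 9.46 ± 0.41 (SD, n = 5) under DMN, 9.60 ± 0.34 under NMF and 9.24 under the others (log2 difference 0.88 ± 0.20, adjusted p = 0.0015), and its call was lost without the ANIT group. The bile salt pump Abcb11 was 1.23-fold lower (log2 difference -0.30 ± 0.10, adjusted p = 0.0393), which was not called without the doubted arrays (adjusted p = 0.0931). The sterol transporter Abcg8 was 1.69-fold lower (log2 difference -0.76 ± 0.25, adjusted p = 0.0281). Basolateral efflux pumps, which face the blood, had 2 of 6 called higher, Abcc3 (above) and Abcc4 (log2 difference 0.72 ± 0.15, adjusted p = 0.000826), and Abcc6 lower (log2 difference -0.64 ± 0.12, adjusted p = 0.000129).

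Cytochromes P450 of drug metabolism were called lower in 19 of 32 members and higher in 0, where 9.28% and 9.67% of all genes were. Their median was -0.39, with -0.37 for ANIT, -0.46 for DMN and -0.42 for NMF. Cyp1a2 read 10.26, 9.65, 10.35, 9.84 and 10.30 under NMF, 12.99, 12.60, 12.61, 13.02 and 13.16 under ANIT and 12.40, 12.66, 12.58, 12.46 and 12.16 under DMN, against 12.64 to 13.24 under the others. Its fall was thus largely that of NMF, 7.29-fold, and the F-test among toxicants gave an adjusted p of 2.12e-16. Cyp2t1 was 2.29-fold lower (log2 difference -1.19 ± 0.16, adjusted p = 1.30e-06; 8.83, 8.83 and 9.06 for ANIT, DMN and NMF). Conjugation enzymes had 8 of 39 called higher and 8 lower. Against the other compounds NMF had 13 higher and 6 lower (median 0.32), ANIT 5 higher and 9 lower (median -0.23) and DMN 2 higher and 6 lower (median -0.06). Of all genes 4.64%, 9.34% and 6.16% were called higher in that order, and 3.63%, 8.8% and 3.88% lower. Gstm3, Gsta3 and Gstp1 rose, while Inmt, an N-methyltransferase, and Sult1c2, a sulfotransferase, were 4.33-fold lower (log2 difference -2.11 ± 0.29, adjusted p = 2.14e-06) and 3.17-fold lower (log2 difference -1.67 ± 0.38, adjusted p = 0.0014).

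Genes of pericentral hepatocytes, the cells next to the central vein, had 12 of 18 members called lower and 1 higher (median -0.53). DMN had 10 called lower, NMF 8 and ANIT 4, where 3.88%, 3.63% and 8.8% of all genes were. Rgn, regucalcin, was 3.45-fold lower (log2 difference -1.79 ± 0.19, adjusted p = 1.07e-08), at 9.29 ± 0.53 (SD, n = 5) under NMF, 11.02 ± 0.37 under ANIT and 11.48 ± 1.12 under DMN. Genes of periportal hepatocytes had 6 of 16 called lower and 1 higher, where 9.28% and 9.67% of all genes were. Their median difference was -0.09, beside -0.05 over all genes. ANIT had 5 called lower, NMF 4 and DMN 2, where 8.8%, 3.63% and 3.88% of all genes were. The mean level of the periportal list relative to controls had a median of -0.29 on the toxicant arrays and 0.08 on the others. Gls2, the liver glutaminase, was 1.62-fold lower (log2 difference -0.70 ± 0.12, adjusted p = 3.00e-05) and Aldh1b1 2.39-fold lower (log2 difference -1.26 ± 0.34, adjusted p = 0.00663). Cdh1, E-cadherin, was 1.57-fold higher (log2 difference 0.65 ± 0.15, adjusted p = 0.00223). The difference between the pericentral and periportal lists was not tested.

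Enzymes of the urea cycle and of amino acid breakdown were called lower in 19 of 40 and higher in 0 (median -0.32). Among all genes 9.28% were called lower and 9.67% higher. Otc, ornithine transcarbamylase of the urea cycle, was 1.89-fold lower (log2 difference -0.92 ± 0.14, adjusted p = 1.32e-05). Kynu, of tryptophan breakdown, was 2.3-fold lower (log2 difference -1.2 ± 0.19, adjusted p = 1.58e-05), and Sds, serine dehydratase, 2.33-fold lower (log2 difference -1.22 ± 0.36, adjusted p = 0.0144), with ANIT the lowest at 8.91 ± 1.10 (SD, n = 5) against 10.93 ± 1.47 for DMN and 10.53 ± 1.25 for NMF. Coagulation and complement proteins had 15 of 26 called lower and 0 higher. Against the other compounds NMF had 16 called lower, DMN 7 and ANIT 5, where 3.63%, 3.88% and 8.8% of all genes were. C6, a part of the membrane attack complex, was 1.86-fold lower (log2 difference -0.90 ± 0.18, adjusted p = 0.000529), F12, a coagulation factor, had a difference of -0.47 ± 0.08 (adjusted p = 2.09e-05), Mbl2, the mannose-binding lectin, one of -0.61 ± 0.12 (adjusted p = 0.000228) and Pros1, protein S, one of -0.63 ± 0.15 (adjusted p = 0.00241).

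Fatty acid synthesis and desaturation genes were called lower in 12 of 25 and higher in 2 (median -0.46). DMN had 11 called lower, NMF 11 and ANIT 6, where 3.88%, 3.63% and 8.8% of all genes were. Scd read 8.30, 8.11, 7.77, 8.47 and 7.68 under NMF, 10.92, 10.14, 9.75, 9.62 and 10.76 under ANIT and 11.01, 11.17, 9.78, 11.40 and 9.99 under DMN, against a lowest value of 10.69, a median of 12.39 and a highest value of 13.02. NMF was lowest, and its 16.5-fold fall exceeded the 3.65-fold of ANIT and the 2.71-fold of DMN (adjusted p = 1.96e-05 for the F-test among toxicants). Fads2, a desaturase, was 2.63-fold lower (log2 difference -1.39 ± 0.23, adjusted p = 3.80e-05) and Acaca, the acetyl-CoA carboxylase that starts the pathway, 2.08-fold lower (log2 difference -1.05 ± 0.16, adjusted p = 6.07e-06).

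The cholesterol synthesis list differed in direction between the toxicants. Its 21 members had 1 called higher and 3 lower (3 and 3 without the doubted arrays), where 9.67% and 9.28% of all genes were. For ANIT 11 were called higher and 0 lower, where 9.34% and 8.8% of all genes were. For DMN 3 were called lower and for NMF 5, where 3.88% and 3.63% of all genes were, with none higher for either. Medians were 0.81, -0.58 and -0.67 for ANIT, DMN and NMF. Cyp51, the lanosterol demethylase, read 12.69, 12.76, 11.01, 12.66 and 13.01 under ANIT, 10.56, 10.99, 10.24, 10.97 and 8.65 under DMN and 10.23, 9.77, 10.22, 10.96 and 10.07 under NMF, against a lowest value of 10.73, a median of 11.56 and a highest value of 12.83. ANIT 3 lay with the DMN arrays, and the F-test among toxicants gave an adjusted p of 4.71e-05. The log2 difference of Cyp51 was -0.67, while a further probe set, at a mean level of 9.7, had -0.20 and was not called. Tm7sf2, a sterol reductase, had a difference of -0.62 ± 0.17 (adjusted p = 0.0101) and the sterol carrier Stard4 one of -0.62 ± 0.18 (adjusted p = 0.0139).

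Targets of PPAR alpha, the receptor that drives fatty acid oxidation, were called in both directions, with 5 of 28 called higher and 6 lower. Eci1, an enoyl-CoA isomerase, was 1.89-fold higher (log2 difference 0.92 ± 0.13, adjusted p = 4.28e-06) and Fgf21, a fasting hormone, 1.82-fold higher (log2 difference 0.86 ± 0.25, adjusted p = 0.0114). A further probe set of Eci1 had a difference of -0.18 and was not called. The thioesterase Acot2 was 1.7-fold higher (log2 difference 0.77 ± 0.20, adjusted p = 0.00542) and Ehhadh, a peroxisomal oxidation enzyme, 1.63-fold lower (log2 difference -0.70 ± 0.20, adjusted p = 0.0113). PPAR gamma targets and lipid droplet genes had 2 of 21 called higher and 3 lower, where 9.67% and 9.28% of all genes were. Since Roziglitazone activates PPAR gamma, the other side is no neutral reference for this list. Fabp4, a fatty acid carrier, was higher by 1.60 ± 0.31 (adjusted p = 0.000199), with 9.18 ± 0.83 (SD, n = 5) under DMN, 7.03 ± 0.96 under NMF, 6.89 ± 1.27 under ANIT and 6.33 ± 0.79 under Roziglitazone. Cidea, a lipid droplet protein, was higher by 1.46 ± 0.21 (adjusted p = 5.15e-06), and Gk, glycerol kinase, and Cfd, adipsin, had differences of -0.82 ± 0.19 (adjusted p = 0.00207) and -0.64 ± 0.15 (adjusted p = 0.00246).

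Apolipoproteins and genes of lipoprotein handling were called lower in 9 of 21 and higher in 0, where 9.28% and 9.67% of all genes were. Lipc, hepatic lipase, was 2.01-fold lower (log2 difference -1.0 ± 0.14, adjusted p = 1.37e-06) and Pon3 1.83-fold (log2 difference -0.87 ± 0.14, adjusted p = 1.50e-05). Apoa2 was 1.66-fold lower (log2 difference -0.73 ± 0.11, adjusted p = 1.32e-05) and Pon1 1.46-fold (log2 difference -0.55 ± 0.12, adjusted p = 0.000739). Glucose and glycogen genes had 5 of 25 called higher and 8 lower. Besides Pklr, Pfkfb1, which sets the level of a glycolytic activator, was 2.17-fold lower (log2 difference -1.11 ± 0.17, adjusted p = 6.83e-06). The glycogen-targeting subunit Ppp1r3b was 1.97-fold lower (log2 difference -0.98 ± 0.21, adjusted p = 0.000925) and Pck2, the mitochondrial phosphoenolpyruvate carboxykinase, 1.95-fold higher (log2 difference 0.96 ± 0.13, adjusted p = 1.01e-06). Of the oxidative phosphorylation list, with 32 members, 1 was called higher, Cox5b (log2 difference 0.20 ± 0.07, adjusted p = 0.0401), and 1 lower, Sdha (log2 difference -0.44 ± 0.11, adjusted p = 0.00373). The Cox5b call was lost in 20 of 48 alternative fits, and without the doubted arrays 3 members were called lower.

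Hepatocyte transcription factors and nuclear receptors had 5 of 26 called lower and 0 higher. Foxa1, a factor that opens liver enhancers, had a difference of -0.77 ± 0.19 (adjusted p = 0.00276) and Nr3c1, the glucocorticoid receptor, one of -0.59 ± 0.16 (adjusted p = 0.00651). Clock genes had 1 of 16 called higher and 3 lower, where 9.67% and 9.28% of all genes were. The hour of sampling is not given in the sources used here. Npas2, an activating clock factor, was 2.36-fold lower (log2 difference -1.24 ± 0.24, adjusted p = 0.000241) and Hlf, an output factor, 1.41-fold lower (log2 difference -0.50 ± 0.18, adjusted p = 0.0422; lost in 24 of 48 alternative fits). The repressor Bhlhe41 had a difference of 0.34 ± 0.11 (adjusted p = 0.0252) at levels near background. Genes of iron handling and heme synthesis had 4 of 23 called higher and 2 lower, where 9.67% and 9.28% of all genes were. Blvrb, biliverdin reductase B, was 1.43-fold higher (log2 difference 0.52 ± 0.09, adjusted p = 4.50e-05). The transferrin receptor Tfrc was 1.61-fold higher (log2 difference 0.69 ± 0.23, adjusted p = 0.0288), a call lost in 9 of 48 alternative fits. The 4 iron genes called higher were 2 without DMN 3, DNP 3 or NMF 3.

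Markers of the cell types that a liver sample can hold were counted beside these lists. Among all genes, 9.67% were called higher and 9.28% lower. Hepatocyte markers had 0 of 11 called higher and 2 lower, and their mean level relative to controls was -0.23 to 0.11 on the toxicant arrays and -0.47 to 0.16 on the others. The 2 called were Cyp2e1 (log2 difference -0.41 ± 0.13, adjusted p = 0.0256) and the urea cycle enzyme Cps1 (log2 difference -0.22 ± 0.07, adjusted p = 0.0142). Cps1 levels were 12.65 to 13.16 and 12.74 to 13.35 on the toxicant and other sides. Bile duct markers had 4 of 15 called higher and 0 lower. They were Krt8 (log2 difference 1.37 ± 0.16, adjusted p = 1.53e-07) and Krt18 (log2 difference 1.03 ± 0.14, adjusted p = 2.21e-06), which hepatocytes also make, and Epcam (log2 difference 0.60 ± 0.18, adjusted p = 0.0172) and Spp1 (log2 difference 0.55 ± 0.16, adjusted p = 0.0137). Their mean level was -0.05 to 0.64 under the toxicants and -0.25 to 0.20 under the others.

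Macrophage markers split, with 3 of 16 called higher and 4 lower. Gpnmb, a glycoprotein of lipid-laden macrophages, read 10.38, 9.40, 10.67, 9.57 and 9.31 under ANIT, 11.64, 9.34, 11.90, 11.38 and 11.58 under DMN and 9.74, 10.31, 10.01, 11.44 and 9.99 under NMF, against a lowest value of 7.21, a median of 8.24 and a highest value of 9.85 (log2 difference 2.05 ± 0.25, adjusted p = 3.17e-07). Lyz2, lysozyme, and Lgals3, galectin-3, were higher by 0.95 ± 0.16 (adjusted p = 2.43e-05) and 0.59 ± 0.19 (adjusted p = 0.0206). Lower calls were those of Clec4f and Cd5l, genes of resident Kupffer cells, at -0.54 ± 0.09 (adjusted p = 4.00e-05) and -0.40 ± 0.10 (adjusted p = 0.00485), of Cd14 at -0.67 ± 0.15 (adjusted p = 0.00146) and of Csf1r at -0.39 ± 0.14 (adjusted p = 0.0406). The mean level of the macrophage list was -0.46 to 0.69 under the toxicants and -0.15 to 0.30 under the others.

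Neutrophil markers had 1 of 12 called higher and 0 lower, where 9.67% and 9.28% of all genes were. For DMN 5 of these markers were called higher, where 6.16% of all genes were. Without the doubted arrays 3 neutrophil markers were called higher and 1 lower. Their mean level ran from -0.42 to 1.52 on the toxicant arrays against -0.31 to 0.32 on the others, and it was high on DMN 1, DMN 3, DMN 4, DMN 5 and ANIT 3. Adam8, a protease of leukocytes, read 9.92, 8.51, 10.23, 9.95 and 9.44 under DMN, 5.58, 6.08, 10.35, 6.07 and 6.99 under ANIT and 5.22, 6.16, 5.72, 4.42 and 4.83 under NMF, against a lowest value of 4.80, a median of 5.42 and a highest value of 6.67 (log2 difference 1.62 ± 0.30, adjusted p = 0.000151). Lymphocyte markers had 0 of 17 called higher and 1 lower, Cd7 (log2 difference -0.71 ± 0.12, adjusted p = 5.38e-05), with 3 lower without the doubted arrays, and mean levels of -0.57 to 0.45 and -0.40 to 0.35 under the toxicants and the others. Endothelial markers had 0 of 14 called higher and 3 lower. These were the scavenger receptors Stab2 (log2 difference -1.10 ± 0.19, adjusted p = 6.76e-05) and Stab1 (log2 difference -0.54 ± 0.14, adjusted p = 0.00633) of sinusoids, and Kdr, a receptor of VEGF (log2 difference -0.97 ± 0.18, adjusted p = 0.000188). Their mean level was -0.84 to 0.02 and -0.24 to 0.15 on the toxicant and other sides.

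Stellate cell and matrix markers had 5 of 31 called higher and 2 lower, where 9.67% and 9.28% of all genes were. Their mean levels were -0.63 to 0.41 under the toxicants and -0.37 to 0.45 under the others. The 5 called higher were 3 without ANIT 3, Caerulein 5 or Roziglitazone 1. Timp1, an inhibitor of matrix proteases, was 1.87-fold higher (log2 difference 0.90 ± 0.20, adjusted p = 0.00135) and Vim, vimentin, 1.71-fold higher (log2 difference 0.78 ± 0.18, adjusted p = 0.00225). Lrat, the retinyl ester enzyme of resting stellate cells, was 2.3-fold lower (log2 difference -1.2 ± 0.28, adjusted p = 0.00228) and the collagen Col3a1 1.55-fold lower (log2 difference -0.64 ± 0.13, adjusted p = 0.000614). Erythroid markers had 1 of 9 called higher and 1 lower, Tfrc and Epb42 (log2 difference -0.43 ± 0.13, adjusted p = 0.0157), with mean levels of -0.94 to 1.27 under the toxicants and -0.56 to 0.41 under the others. Pancreatic acinar markers, which would show pancreas in a sample, had 0 of 16 called higher and 5 lower, led by Cela1 (log2 difference -1.34 ± 0.23, adjusted p = 4.29e-05) and Cpb1 (log2 difference -0.78 ± 0.17, adjusted p = 0.000944), with mean levels of -0.79 to 0.19 under the toxicants and -0.40 to 0.37 under the others. With means not above the background range on both sides were 2 of the 12 neutrophil, 1 of the 17 lymphocyte, 5 of the 16 acinar and 0 of the 9 erythroid markers. The part of cell composition in the differences above was not tested.

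**Figure D4:**
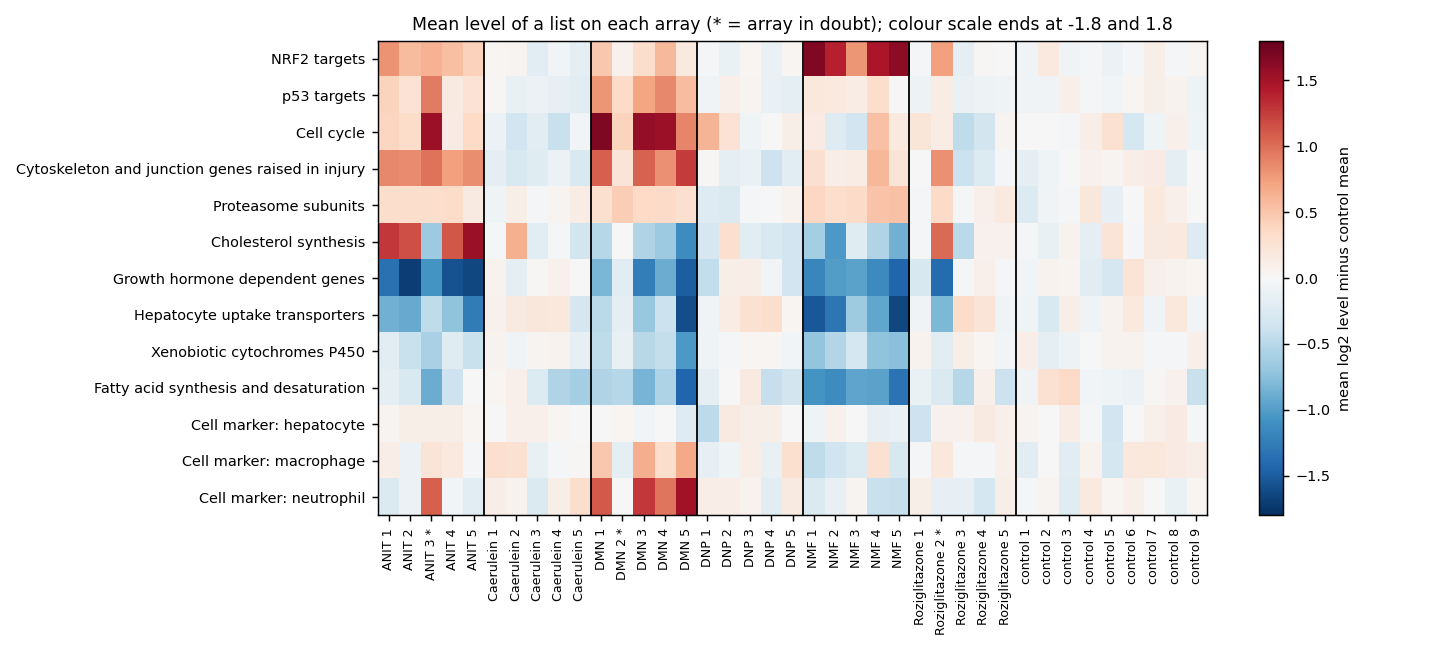
Mean log2 level of the members of 13 lists on each of the 39 arrays (columns, grouped by compound; asterisks mark the doubted arrays) minus the mean of the controls, as colour from blue (lower) to red (higher), with the scale ending at -1.8 and 1.8. Growth hormone dependent genes and uptake transporters are blue on the toxicant arrays and on Roziglitazone 2, NRF2 targets are reddest under NMF, and cell cycle genes under DMN and on ANIT 3.

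The 3 toxicants were then compared with each other by an F-test, which called 1376 genes (9.68%). Of these 528 (3.71% of all genes) were among the 2695 called genes, and 95 among the 229 with 2-fold differences. Without the array ANIT 5 the count was 861, and without the 3 doubted arrays it was 2081. Set against the other compounds 1 by 1, ANIT had 2579 called genes (18.1%), DMN 1428 (10%) and NMF 1175 (8.26%), or 761 for NMF without the array NMF 1. These 3 comparisons share the 15 other arrays. The genes in which 1 toxicant stood furthest from the other two were, for ANIT, the sterol gene Cyp51, the dicarboxylate carrier Slc13a3, the glutathione transferase Gstp3 and the acetyl-CoA synthetase Acss2. Slc13a3 read 9.49, 9.70, 6.92, 9.83 and 9.60 under ANIT, inside the range of the others but for ANIT 3, against 5.87, 8.65, 7.73, 5.97 and 6.74 under DMN and 6.20, 5.33, 6.83, 6.70 and 5.79 under NMF and 8.50 to 10.48 under the other compounds. Acss2 had means of 11.13 ± 1.69 (SD, n = 5) under ANIT, 8.67 ± 1.01 under DMN and 9.09 ± 0.59 under NMF, with 10.64 for the others. Gstp3 went the opposite way, at 8.56 ± 1.34 under ANIT, 11.30 ± 1.2 under DMN and 11.78 ± 0.47 under NMF, with 11.996 for the others.

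Some calls were lost when the group of 1 toxicant left the contrast. Among 141 named genes this held for 26 without ANIT, 21 without DMN and 17 without NMF. Calls were also lost in 17 without Caerulein, 20 without DNP and 9 without Roziglitazone, so a lost call does not show that it rested on 1 toxicant. Without ANIT the lost calls included those of Abcb4, Acox2, Nr1h4, Hamp, Lbp, Tnfaip3, Mx2, Isg15, Tap1, Isg20, Sds, Cdh1, Foxa1, Klf6, Tfrc, Hmox1 and Gstp3. Without DMN they included Ube2c, Ccna2, Kif20b, Gadd45a, Psmd4, Fabp4, Fgf21, Ehhadh, Cfd and RT1-T24-4. Without NMF they included Cyp7a1, Slco1a4, Abcc4, Cxcl9, Acot2, Gk, Nr3c1, C6 and Gstp1. No named gene changed direction in these fits.

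DMN stood apart in Abcc3, Gpx2, Car3 and RT1-T24-4, a class I histocompatibility gene. Car3 read 12.52, 13.58, 12.62, 12.72 and 11.17 under DMN, against 8.85, 8.39, 12.30, 8.75 and 10.18 under ANIT and 8.85, 10.75, 10.57, 10.15 and 8.93 under NMF, and the other compounds ranged from 9.13 to 13.76 with Roziglitazone 2 the lowest. RT1-T24-4 was low under DMN, at 7.25, 10.10, 4.70, 7.37 and 6.64, and on ANIT 3 and NMF 1, at 7.15 and 7.10; on other arrays it varied between 8.99 to 11.56 under the other compounds and 7.58 to 11.16 in controls (log2 difference -1.34 ± 0.44, adjusted p = 0.0271). NMF stood apart in Akr1b8, Gstp1, Lcn2 and Mybl1. Lcn2, lipocalin 2, which withholds iron from bacteria, read 8.03, 6.65, 7.18, 8.89 and 7.54 under NMF, against 13.12, 13.34, 12.66, 12.87 and 12.66 under ANIT and 12.99, 8.0, 12.49, 12.69 and 13.19 under DMN. The other compounds were spread from 6.19 to 13.30 with a mean of 10.60 for Caerulein, and the overall call (log2 difference 1.64 ± 0.59, adjusted p = 0.0447) was lost in 28 of 48 alternative fits. Mybl1, a transcription factor of the Myb family, was at 8.02 ± 0.35 (SD, n = 5) under ANIT and 7.37 ± 1.05 under DMN but at 4.44 ± 0.70 under NMF, within the background range.

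Each toxicant could also be matched to another compound by route, and in 2 cases by vehicle. DMN and DNP, both 15 mg/kg in water by mouth, differed in 980 genes (6.89%). NMF and Caerulein, both in saline by injection, differed in 781 genes (5.49%), and ANIT and Roziglitazone, both by mouth but in different vehicles, in 524 genes (3.69%). Without the 3 doubted arrays these counts were 1578 (11.1%), 957 (6.73%) and 1625 (11.4%), and that of ANIT and Roziglitazone, with a doubted array in each group, moved most. Stac3 was lower in all 3 pairs, with differences of -3.96 (adjusted p = 0.000443), -4.13 (adjusted p = 0.00018) and -4.55 (adjusted p = 0.000754). Oat gave -2.41 (adjusted p = 2.93e-05), -2.38 (adjusted p = 1.21e-05) and -2.41 (adjusted p = 0.000322) in the same order, and Rnd1 2.85 (adjusted p = 0.000466), 2.16 (adjusted p = 0.00685) and 3.16 (adjusted p = 0.00079). Serpina6 was called in the NMF pair (-2.77, adjusted p = 0.00582) and the ANIT pair (-3.32, adjusted p = 0.00257), and had -0.85 in the DMN pair (adjusted p = 0.469). Without the doubted arrays Stac3 gave -4.79 in the DMN pair and -5.49 in the ANIT pair, and Serpina6 gave -1.19 (adjusted p = 0.0988) and -4.65 (adjusted p = 1.99e-08).

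Against the 9 untreated rats the toxicants differed in 2297 genes (16.2%), 1080 higher (7.6%) and 1217 lower (8.56%), and the other compounds in 0 by limma, with 517 genes at an unadjusted p under 0.05 and a smallest adjusted p of 0.0882. With array weights 39 genes were called for the other compounds, without Roziglitazone 2 there were 2, and without DMN 2 or DNP 5 there was 1 each. Both comparisons share the controls, which had no vehicle. Some genes were called between the sides although the toxicants stayed within 0.5 log2 units of the controls. In Insig1, a brake on sterol synthesis, Myc, Tsku, Usp2 and Noct the other compounds were the lower side. Noct, nocturnin, a rhythmically expressed enzyme, read 4.84 to 7.43 under the toxicants, 4.74 to 5.83 under the others and 4.99 to 7.97 in controls, with means of 6.33, 5.33 and 6.31 (log2 difference 1.0 ± 0.28, adjusted p = 0.00887). Myc, a growth-promoting factor, had means of 8.48, 7.0 and 8.01 (log2 difference 1.47 ± 0.38, adjusted p = 0.00526). Insig1 had 11.65, 10.68 and 11.59 (log2 difference 0.96 ± 0.31, adjusted p = 0.0246), and Usp2, a deubiquitinase, 8.19, 7.25 and 8.24 (log2 difference 0.94 ± 0.26, adjusted p = 0.00954). Tsku, a secreted leucine-rich protein, had 9.73, 8.59 and 9.93 (log2 difference 1.14 ± 0.38, adjusted p = 0.0291). Nr1d1, the clock repressor REV-ERB alpha, was the reverse, with 7.68, 8.53 and 7.60 (log2 difference -0.85 ± 0.22, adjusted p = 0.00605). For these 6 genes the difference of the other compounds from controls was not called, with adjusted p from 0.754 to 1.0.

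Rats given 1 compound do not stand for other compounds of its kind, so the difference was also tested with the 6 compound means as the 6 observations, 3 against 3. This called 193 genes (1.36%), 82 higher (0.577%) and 111 lower (0.781%), with 2595 (18.3%) at an unadjusted p under 0.05, and 103 of the 229 genes with 2-fold differences were among them. The count moved with single arrays, to 81 without ANIT 3, 117 without NMF 4, 439 without Roziglitazone 2, 82 without Roziglitazone 3 and 110 without Roziglitazone 4. Oat (adjusted p = 0.00114 at this level), Anxa2 (0.00897), Inmt (0.00897), Obp3 (0.00897), Cyp2c11 (0.0117), Tubb6 (0.0137), Slc22a8 (0.0162), Atf3 (0.0221) and Mcm6 (0.029) were called there. Not called there were Gstp1 (0.336), Akr1b8 (0.292), Abcc3 (0.106) and Cyp1a2 (0.355).

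Only 2 genes had all 15 toxicant arrays beyond all 15 other arrays (0.0141%), both higher, and they are named here after their values were seen. Erh, a small nuclear protein of RNA processing, read 10.74, 10.65, 10.76, 10.77 and 10.82 under ANIT, 10.76, 10.83, 10.85, 10.85 and 11.15 under DMN and 10.92, 10.64, 10.75, 11.11 and 11.08 under NMF, against a lowest value of 9.72, a median of 10.16 and a highest value of 10.62 under the others, and was 1.63-fold higher (log2 difference 0.71 ± 0.08, adjusted p = 6.90e-08). Pmm1, a phosphomannomutase of sugar nucleotide supply, read 8.43, 8.27, 9.26, 8.60 and 8.71 under ANIT, 9.0, 8.67, 8.76, 9.16 and 8.54 under DMN and 8.69, 8.49, 8.31, 8.92 and 9.07 under NMF, against a lowest value of 7.17, a median of 7.52 and a highest value of 8.26, and was 2.3-fold higher (log2 difference 1.2 ± 0.12, adjusted p = 1.07e-08). In both the highest of the other arrays was Roziglitazone 2, at 10.62 and 8.26, and the gap to the lowest toxicant array was small. Without the 3 doubted arrays 101 genes separated all 13 toxicant from all 14 other arrays, 42 higher (0.295%) and 59 lower (0.415%), or 0.71% in all. Among the genes named above, Rnd1, Tubb6, Enc1, Neurl3, Phlda3, Anxa2 and Krt8 were on the higher side of these, and Stac3, Fmo1, Nrep, Car3, Oat, Ust5r, Pklr, Cyp2c11, Cyp3a2, Rgn and Slc22a8 on the lower side.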

How the data were processed

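Liver RNA of 39 rats was hybridised to 39 one-colour arrays, 5 for each of 6 compounds and 9 for untreated rats, grouped by the sample titles. The deposited values were linear intensities of 31099 probe sets from 5.4 to 23152.1, with array means of 348 to 363; RMA and affy are named in the submitters' processing notes, with versions and scaling not given in the sources used here. Log2 of the deposited intensities was taken here, 57 control probe sets were left out, and the probe set with the highest mean stood for each of 14217 genes (20826 probe sets had 1 symbol, 436 several and 9780 none, and 20758 symbols were found in the RefSeq gene table). The arrays limit the precision by their number.

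limma 3.58.1 in R 4.3.3 fitted 1 mean per group over all 39 arrays with empirical Bayes moderation, Benjamini-Hochberg adjustment over all genes and a threshold of 0.05, and was tested on simulated data. An F-test compared the 3 toxicants, and a separate limma fit used the 6 compound means. The titles number the arrays of a group as biological replicates, and p-values measure only the spread between these samples. The members, the 42 gene lists (933 of 1060 written members measured) and the tests were chosen with earlier results of these data known. Named genes were the 12 largest called differences in each direction with the 3 toxicant means beyond the 3 others, up to 4 called members per list by size, 4 genes per toxicant in which it stood apart, and 6 genes whose toxicant mean lay near the controls. Alternatives were 40 to 48 per result, from other scalings, offset, filters, probe set averages, moderation, array weights, the replicate block, and arrays or groups left out where the result allowed them. Of 48 further probe sets for 36 named genes, 20 were called the same way, 0 the opposite way and 28 were not called. Some of those not called had the opposite sign. Promoter sequences are from RefSeq (GRCr8).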

Additional observations from a re-analysis of the deposited data

Results flagged for a closer look

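In 41 genes named for their size, for 1 toxicant standing apart or for likeness to controls, each of the 7 groups was searched for a single array far from the rest. Such an array was found in 43 of 287 gene and group pairs (15.0%), where chance gives about 1 in 20. The arrays labelled ANIT 3, Roziglitazone 2 and DMN 2 accounted for 11, 9 and 6 of them. Values below are log2 intensities, with the range of the other arrays of the same group.

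ANIT 3 lay above its group in Akr1b7 at 11.11 (6.36 to 7.58), Serpina6 at 10.16 (7.53 to 8.04) and Pklr at 8.96 (7.95 to 8.18). ANIT 3 also lay below its group in Abcc3 at 7.15 (10.10 to 11.21), Gstm3 at 7.80 (11.07 to 12.08), Neurl3 at 9.01 (10.41 to 10.87) and Gpx2 at 6.00 (8.48 to 9.31). ANIT 3 also lay below its group in Cyp51 at 11.01 (12.66 to 13.01), Slc13a3 at 6.92 (9.49 to 9.83), Acss2 at 8.22 (11.41 to 12.64) and RT1-T24-4 at 7.15 (10.34 to 11.55). Roziglitazone 2 lay above its group in Rnd1 at 9.26 (4.73 to 5.49), Gstm3 at 11.84 (5.93 to 7.44), Mybl1 at 8.37 (3.87 to 4.27) and Tsku at 11.23 (7.38 to 8.14). Roziglitazone 2 also lay below its group in Stac3 at 6.00 (10.71 to 11.31), Fmo1 at 7.53 (10.82 to 11.19), Car3 at 9.13 (13.55 to 13.76) and Oat at 9.54 (12.18 to 12.60). Roziglitazone 2 also lay below its group in Ust5r at 8.72 (10.92 to 11.50). DMN 2 lay above its group in Stac3 at 9.79 (5.38 to 6.34), Nrep at 11.07 (7.60 to 8.54) and Ust5r at 11.18 (9.40 to 9.90). DMN 2 also lay below its group in Tubb6 at 9.07 (10.68 to 11.12), Gpnmb at 9.34 (11.38 to 11.90) and Lcn2 at 8.0 (12.49 to 13.18).

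Fewer such values came from other arrays. Caerulein 1 lay above its group in Mybl1 at 4.17 (3.70 to 3.77). Caerulein 2 lay below its group in Dhrs7l1 at 8.49 (11.19 to 12.09) and Car3 at 13.04 (13.48 to 13.58). Caerulein 4 lay below its group in Tsku at 7.30 (8.54 to 8.85). DMN 5 lay above its group in Akr1b8 at 8.90 (6.67 to 7.27) and Erh at 11.15 (10.76 to 10.85). DNP 1 lay above its group in Abcc3 at 6.58 (4.77 to 5.26). DNP 1 also lay below its group in Serpina6 at 10.78 (12.35 to 12.78). DNP 3 lay above its group in Lcn2 at 8.88 (6.39 to 7.04). DNP 3 also lay below its group in Noct at 4.76 (5.71 to 5.78). NMF 1 lay below its group in RT1-T24-4 at 7.10 (10.04 to 11.22). NMF 4 lay above its group in Mybl1 at 5.66 (3.92 to 4.31). Control 2 lay above its group in Akr1b8 at 7.52 (5.38 to 6.34). Control 5 lay above its group in Oat at 12.68 (11.88 to 12.25) and Acss2 at 11.27 (10.43 to 10.71). Control 5 also lay below its group in Serpina6 at 9.82 (12.22 to 13). Control 8 lay below its group in RT1-T24-4 at 7.58 (10.33 to 11.16).

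Unequal effects of the 3 toxicants were found in 20 of the 41 genes by limma's F-test, given here with its adjusted p and the log2 differences of ANIT, DMN and NMF from the other compounds, in that order. The drug and electrophile defence genes were Abcc3 (adjusted p = 0.00125; 4.41, 0.86 and 4.83), Akr1b8 (adjusted p = 5.58e-11; 0.34, 1.44 and 5.90), Gsta3 (adjusted p = 0.00035; 1.40, 0.75 and 4.13) and Gpx2 (adjusted p = 2.69e-05; 3.29, 0.35 and 4.23). Further ones were Gstp3 (adjusted p = 0.000429; -3.43, -0.70 and -0.22), Gstp1 (adjusted p = 5.58e-11; 0.17, 0.70 and 3.89), Fmo1 (adjusted p = 0.0386; -2.94, -2.67 and -4.51) and Ust5r (adjusted p = 0.00414; -2.63, -1.05 and -3.19). Lipid and acid metabolism genes were Scd (adjusted p = 1.96e-05; -1.87, -1.44 and -4.04), Cyp51 (adjusted p = 4.71e-05; 0.77, -1.37 and -1.40), Acss2 (adjusted p = 0.00111; 0.49, -1.97 and -1.55) and Slc13a3 (adjusted p = 4.83e-05; -0.20, -2.31 and -3.13). Plasma protein and growth hormone dependent genes were Car3 (adjusted p = 0.00193; -3.56, -0.73 and -3.40), Serpina6 (adjusted p = 0.00409; -3.90, -0.76 and -2.28) and Lcn2 (adjusted p = 0.00125; 3.75, 2.70 and -1.52). The others were Rnd1 (adjusted p = 0.00905; 3.98, 2.44 and 1.75), Neurl3 (adjusted p = 0.00704; 3.10, 1.16 and 1.59), Nrep (adjusted p = 0.0378; -2.70, -2.13 and -4.03), Mybl1 (adjusted p = 1.54e-05; 3.76, 3.11 and 0.18) and RT1-T24-4 (adjusted p = 0.00813; -0.17, -3.32 and -0.53). Genes chosen because 1 toxicant stood apart had to differ, and for them the test is a description: Cyp51, Slc13a3, Gstp3, Acss2, Abcc3, Car3, Gpx2, RT1-T24-4, Akr1b8, Gstp1, Lcn2 and Mybl1.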

How the results depend on the processing

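No named gene changed direction under the 48 alternatives, and 85 of the 141 named genes stayed on their side of the threshold in all of them. The calls least stable were those of Hmox1, Lcn2, Hlf and Abcb11, lost in 29, 28, 24 and 22 alternatives. The total of list members called, 348, ranged from 260 to 462, but single lists moved further. Centring each array left 3 of 6 lower calls among PPAR alpha targets, 0 of 2 among hepatocyte markers and iron genes and 1 of 2 among canalicular pumps. Without the doubted arrays higher calls were 7 for chemokines and 3 each for neutrophil markers and cholesterol synthesis. The medians of acute phase, erythroid, PPAR gamma, glucose and conjugation genes, all near 0, changed sign under a scaling. Leaving out 1 array moved p53 targets called lower from 3 to 1 (9 arrays), cytoskeletal genes called lower from 2 to 0 (NMF 3), neutrophil markers called higher from 1 to 4 (DMN 2), lymphocyte markers called lower from 1 to 3 (NMF 5) and cell death genes called lower from 2 to 4 (Roziglitazone 2). Interferon genes called higher were 3 without ANIT 5, 3 without DMN 3 and 1 without both. The matched pairs ANIT and Roziglitazone and DMN and DNP gave 1625 and 1578 genes without the doubted arrays; these fits were added after seeing the data. Downweighting discordant arrays (array weights) called 4491 genes (2333 higher, 2158 lower), 3905 by the F-test among toxicants, 4872, 3022 and 2358 for ANIT, DMN and NMF, 4264 for the toxicants against controls and 39 for the other compounds against controls. The contrast without the Caerulein group called 1770 genes (893 higher, 877 lower), and without DNP 1611 (671 lower). Without the Roziglitazone group, which leaves out as many arrays, 3090 were called. Without ANIT 856 were lower. Without NMF 351 genes were called with 2-fold differences. An offset of 50 before the log2, which shrinks low values, left 144 such genes, 87 at compound level and 1 for the other compounds against controls. Without the 3 doubted arrays the F-test called 2081 genes and the other compounds differed from controls in 2. After seeing the data, arrays with low GAPDH 5-prime signal were left out, which called 126 genes at compound level. Leaving out these and the doubted arrays gave 373 genes with 2-fold differences, 2958 by the F-test, 329 at compound level, 3999, 2148 and 1896 for ANIT, DMN and NMF, and 1 for the other compounds against controls. The cause of these shifts was not tested.

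Leaving out 1 compound array at a time gave 2255 to 3066 called genes, 1156 to 1544 higher and 1098 to 1578 lower, 213 to 284 with 2-fold differences, 861 to 1820 by the F-test and 81 to 439 at compound level. For ANIT, DMN and NMF against the other compounds the ranges were 1769 to 3025, 966 to 1814 and 761 to 1350. Against controls they were 1934 to 2611 for the toxicants and 0 to 2 for the other compounds, and the members of lists called numbered 319 to 372. With the replicate number as a block 2867 genes were called (1385 higher, 1482 lower), 2606 of them shared with the fit without it, and 1660 for the toxicants against controls; deviations from group means correlated above 0.1 in 45 of 75 pairs of arrays with 1 number and in 75 of 300 with different numbers, but in all 5 same-numbered pairs in only 1 of 15 pairs of compound groups (DNP and Roziglitazone), so the block was not made the reported fit. Controls had no vehicle and each toxicant came in 1 dose, so vehicle, route and dose cannot be told apart from compound, except between DMN and DNP (same vehicle, route and mg/kg) and, for vehicle and route, between NMF and Caerulein. Probe signals near background limit the differences of Ccna2, Kif20b, Mybl1 and Bhlhe41.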
